A study of Mus musculus with 3 samples.

Results

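The 9 genes described here encode the eicosanoid-making enzymes and type 2 effector molecules of intestinal tuft cells. They are *Alox5*, *Alox5ap*, *Ltc4s*, *Ptgs1*, *Hpgds*, *Il25*, *Il17rb*, *Trpm5* and *Dclk1*, taken by name from the 27998 genes of the count matrices and followed through the cell classes of 3 single-cell libraries. Each library held small-intestinal epithelial cells sorted for EpCAM from C57BL/6 mice that, per the labels, were given a pair of 2 mg doses of tamoxifen at 7 to 8 weeks of age. The WT library was taken on day 21 after tamoxifen, the *LApc* library (Lgr5-CreERT2;Apc fl/fl, in which Cre removes *Apc* from Lgr5-positive stem cells) on day 29, and the *LApcL* library (the same alleles with Lef1 fl/fl) on day 21. The labels do not say whether the WT mouse carried the Cre transgene, and the study's methods describe 1 dose of tamoxifen for WT mice, so the dosing of the WT library is uncertain. Each genotype was 1 library, so genotype, mouse, day and library cannot be told apart, and no test between genotypes was possible. All intervals below are exact 95% intervals that cover counting error only.

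Tuft cells are rare chemosensory cells of the gut epithelium that sense luminal metabolites, parasites and microbes. A taste-like cascade ends in the cation channel Trpm5, and the cell then releases the cytokine IL-25, which acts on group 2 innate lymphoid cells, and lipid mediators made from arachidonate. The 5-lipoxygenase Alox5, with its helper protein Alox5ap (FLAP), makes leukotriene A4, which Ltc4s conjugates to glutathione to give leukotriene C4. In the other branch the cyclooxygenase Ptgs1 (COX-1) makes prostaglandin H2, which Hpgds converts to prostaglandin D2.

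Cells were classed by clustering that used none of the 9 genes, and levels are unique molecular identifiers (UMIs) per 1000000 UMIs of a class (CPM). Because 1 UMI counts 1 captured 3′ end, a CPM does not grow with gene length. After filtering, 10200 WT, 9619 *LApc* and 14485 *LApcL* cells remained, with median depths of 9732.5, 6133 and 10144 UMIs, and 17.7% of the *LApc* barcodes exceeded the mitochondrial limit against 0.541% and 2.38% of the others. Between 1.62% and 2.52% of barcodes were shared by pairs of libraries. *Lef1* was at 21.3 CPM in the adenoma-enriched cells of *LApc* and 3.42 CPM in those of *LApcL*, whereas *Apc* was at 49.2 and 37.4 CPM there and at 19.2 CPM in WT Wnt/TA-like cells, so the counts did not show the *Apc* deletion. 3′ counts need not register a deleted exon. The tuft-like class was named from 12 tuft markers that exclude the 9 genes, so high levels of these markers there follow from the naming and do not check it. Their summed level was 8936 CPM in WT, 13488 in *LApc* and 9273 in *LApcL*, against 22.4 to 36.6 CPM in all other cells.

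Tuft-like cells numbered 256 in WT, 72 in *LApc* and 312 in *LApcL*. These were 2.51% (2.21 to 2.83), 0.749% (0.586 to 0.942) and 2.15% (1.92 to 2.40) of the kept cells. The *LApc* values below therefore rest on 362855 UMIs in the tuft-like class, against 2287146 in WT and 1727688 in *LApcL*.

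In GRCm38 coordinates, as annotated by GENCODE, the genes lie at chr6:116410077-116461178 (*Alox5*, ENSMUSG00000025701, minus strand), chr5:149264767-149288153 (*Alox5ap*, ENSMUSG00000060063, plus), chr11:50236461-50238616 (*Ltc4s*, ENSMUSG00000020377, minus), chr2:36230426-36252272 (*Ptgs1*, ENSMUSG00000047250, plus) and chr6:65117293-65144908 (*Hpgds*, ENSMUSG00000029919, minus). *Il25* (ENSMUSG00000040770, plus) is at chr14:54932695-54935837, *Il17rb* (ENSMUSG00000015966, minus) at chr14:29996135-30008896, *Trpm5* (ENSMUSG00000009246, minus) at chr7:143069153-143094642 and *Dclk1* (ENSMUSG00000027797, plus) at chr3:55242364-55539068. All are protein-coding.

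The 250 bases before the start were read for 7 of the 9 genes from RefSeq (GRCm38.p6), and those of 3 genes are shown because they carry the largest differences between libraries or a sequence composition unlike the rest. Capitals mark a GC box (GGGCGG, on either strand). *Alox5* (chr6:116461179-116461428, minus strand) has 1 beginning 35 bases before its start, *Il17rb* (chr14:30008897-30009146, minus strand) has 1 beginning 10 bases before its start, and *Ptgs1* (chr2:36230176-36230425, plus strand) has none.
Alox5: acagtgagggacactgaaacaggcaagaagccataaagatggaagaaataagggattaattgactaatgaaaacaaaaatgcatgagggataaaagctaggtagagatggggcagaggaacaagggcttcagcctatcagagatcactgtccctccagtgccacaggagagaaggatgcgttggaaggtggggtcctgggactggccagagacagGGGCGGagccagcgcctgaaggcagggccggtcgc
Ptgs1: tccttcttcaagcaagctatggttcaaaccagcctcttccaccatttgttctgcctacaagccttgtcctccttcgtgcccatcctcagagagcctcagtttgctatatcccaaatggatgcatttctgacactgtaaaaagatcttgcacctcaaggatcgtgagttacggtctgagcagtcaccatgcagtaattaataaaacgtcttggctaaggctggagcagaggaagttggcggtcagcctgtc
Il17rb: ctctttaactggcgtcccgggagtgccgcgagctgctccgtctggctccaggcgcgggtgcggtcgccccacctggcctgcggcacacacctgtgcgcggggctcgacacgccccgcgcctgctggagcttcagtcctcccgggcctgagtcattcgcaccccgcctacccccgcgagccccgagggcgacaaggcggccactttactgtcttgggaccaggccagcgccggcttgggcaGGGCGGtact
The *Il17rb* window held 27 CG dinucleotides, more than in 91.4% of 32851 windows of the same length, whereas the windows of *Alox5* and *Ptgs1* held 5 each. GGGCGG was present in 32.7% of all windows and TATAAA in 12.4%. TATAAA was in 0 of the 8 windows of the members, *Dclk1* having 2.

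The octamer ATGCAAAT, the motif bound by POU-domain factors such as the tuft cell factor Pou2f3, was found in 1 member window and in 1.60% of all windows, searched on both strands and overlapping no other motif. It begins 174 bases before the RefSeq start of *Hpgds*, within the longer GENCODE gene model. The stretch shown, with its flanks, is chr6:65144887-65144914 on the minus strand. The site is shown with the octamer in capitals because *Hpgds* was the 1 member with this motif. A match of letters in a window is not a binding site.
Hpgds: tttactctttATGCAAATacgttggact

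**Figure D1:**
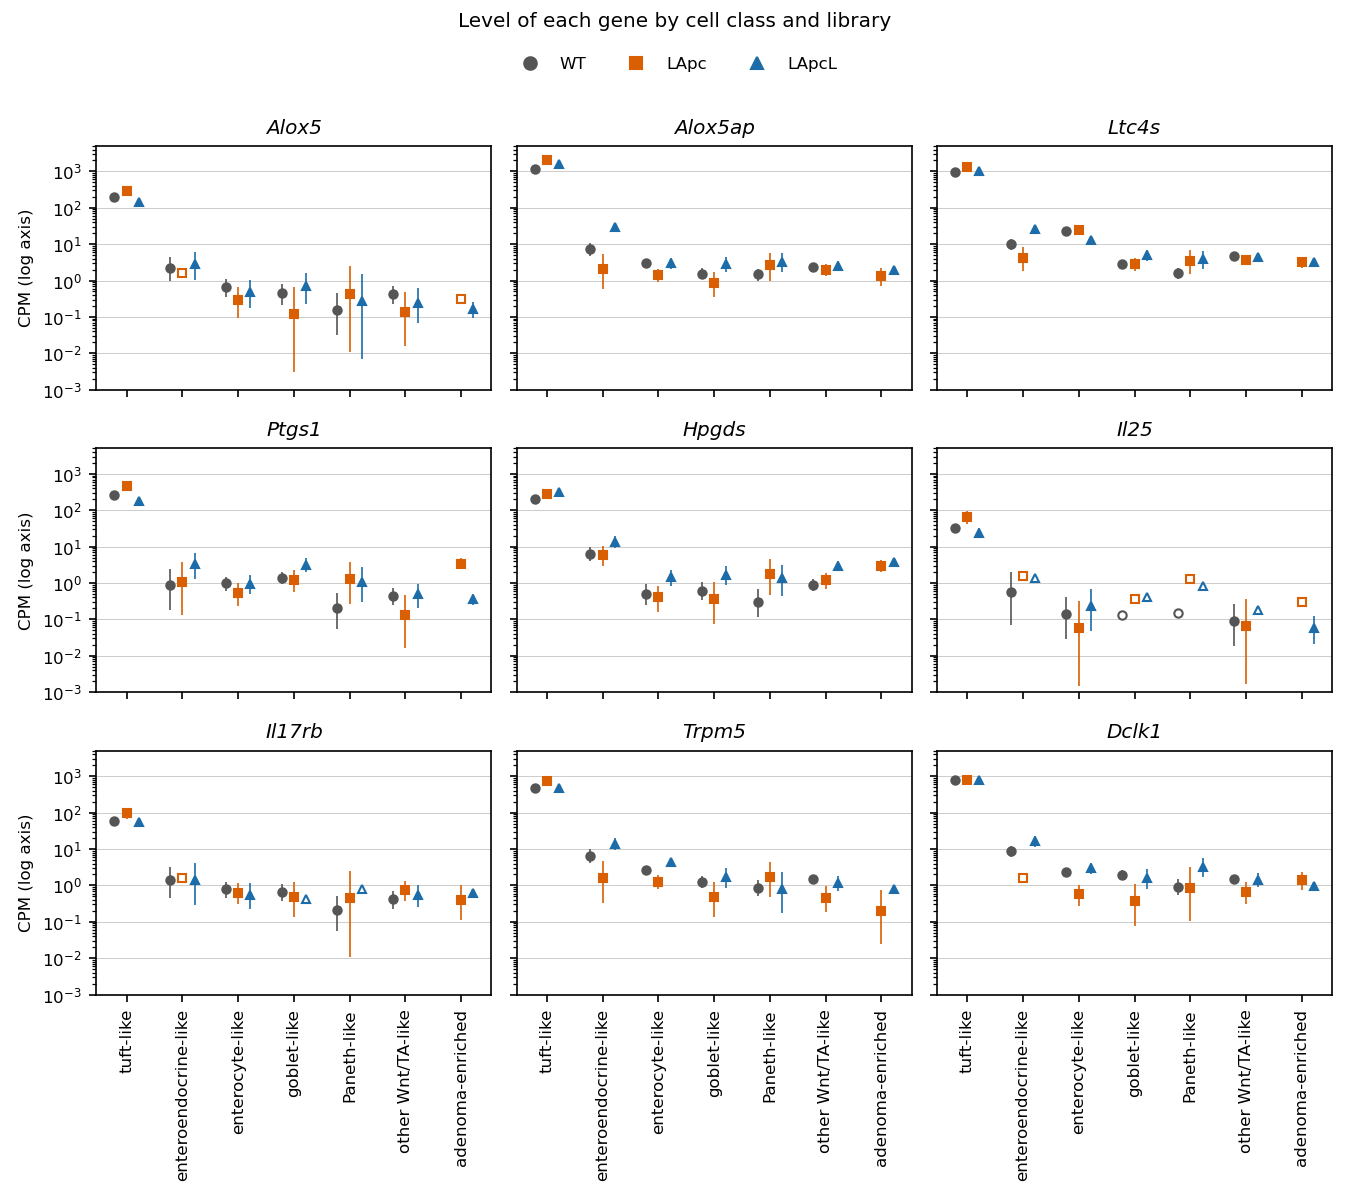
Level of each gene (CPM, log axis) in each cell class of the WT, LApc and LApcL libraries, with bars for the exact 95% Poisson interval; each point is 1 library. For every gene the tuft-like level lies above that of all the other classes, and *Ltc4s* in enterocyte-like cells, at 23.4 CPM in WT, is the highest of the WT levels outside the tuft-like class.

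The transcripts of the 9 genes were concentrated in tuft-like cells. Of all their UMIs, 82.8% in WT, 69.8% in *LApc* and 77.0% in *LApcL* lay in that class, which held 1.88%, 0.579% and 1.11% of all UMIs. By gene, the lowest and highest shares were 63.9% and 90.4% in WT, 45.0% and 92.3% in *LApc*, and 51.4% and 87.1% in *LApcL*. The tuft-like level was 92.8 to 491 times that of the other cells in WT and 94.7 to 603 times in *LApcL*.

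Of the leukotriene enzymes, *Alox5* was at 204 CPM (186 to 224) in WT tuft-like cells, 289 (237 to 350) in *LApc* and 142 (125 to 161) in *LApcL*. *Alox5ap* was at 1170 CPM (1127 to 1216), 2072 (1927 to 2226) and 1616 (1557 to 1677). *Ltc4s* was at 948 CPM (909 to 989), 1304 (1189 to 1426) and 1009 (962 to 1057). *LApc* was the highest of the 3 libraries for each enzyme, but *LApcL* was the lowest for *Alox5* and lay between the others for *Alox5ap*.

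Of the prostaglandin enzymes, *Ptgs1* was at 256 CPM (236 to 278) in WT. It was at 474 CPM (406 to 550) in *LApc* and 185 CPM (165 to 206) in *LApcL*. *Hpgds* was at 206 CPM (188 to 225), 287 (234 to 347) and 326 (300 to 354). The 2 enzymes of this branch thus differed in order: *LApcL* was lowest for the cyclooxygenase and highest for the synthase downstream of it, although for *Hpgds* the intervals of *LApc* and *LApcL* overlapped and *LApc* was the higher when doublets were kept or when cells were called tuft-like by at least 3 of the 12 markers (log2 ratio of *LApcL* to *LApc* -0.16 and -0.14).

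Of the IL-25 axis, *Il25* gave 75 UMIs in WT tuft-like cells, 24 in *LApc* and 42 in *LApcL*, or 32.8 CPM (25.8 to 41.1), 66.1 (42.4 to 98.4) and 24.3 (17.5 to 32.9). *Il17rb*, a subunit of the IL-25 receptor, was at 58.2 CPM (48.7 to 68.9), 96.5 (67.2 to 134) and 57.3 (46.6 to 69.8). For both genes the WT and *LApcL* intervals overlapped and *LApc* was highest, but the *LApc* and WT intervals of *Il17rb* also overlapped.

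The channel gene *Trpm5* was at 464 CPM (437 to 493) in WT and 477 CPM (445 to 511) in *LApcL*, whose intervals overlapped, and was higher at 733 CPM (648 to 827) in *LApc*. *Dclk1*, a kinase gene widely used to mark tuft cells, was at 817 CPM (780 to 855), 802 (712 to 900) and 814 (772 to 858). *Dclk1* was the member with the closest levels in the 3 libraries, and all its intervals overlapped. With doublets kept its log2 ratio was -0.28 for *LApc* over WT and -0.43 for *LApcL* over WT.

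**Figure D2:**
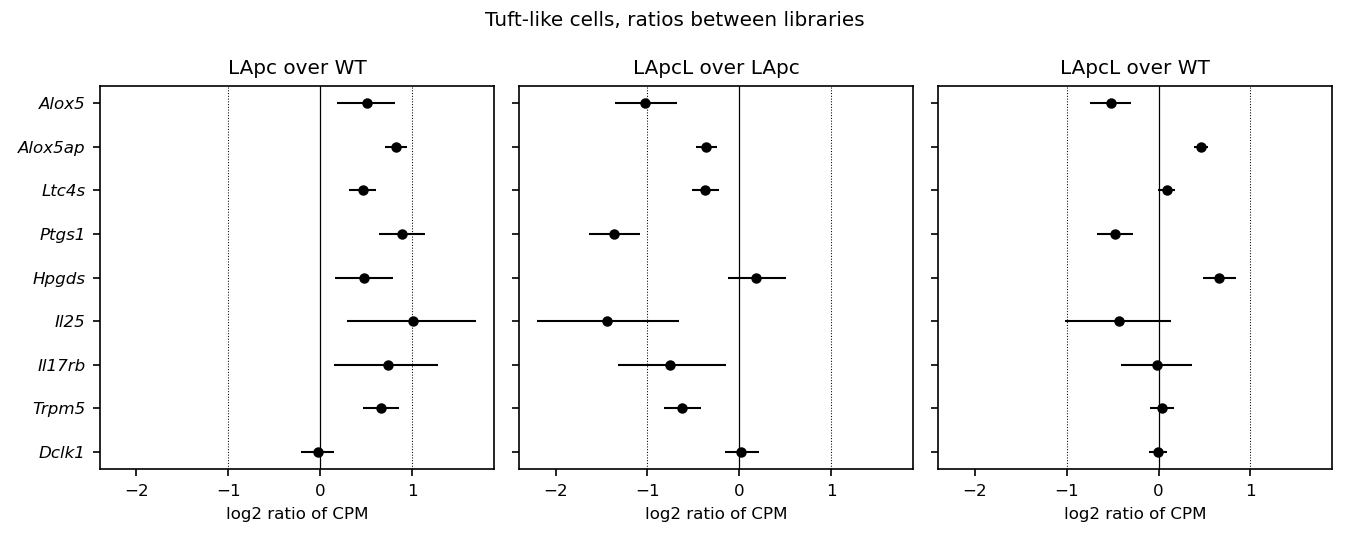
Log2 ratio of CPM in tuft-like cells for each gene and pair of libraries, with exact conditional binomial 95% intervals, 1 library per genotype. The points for LApc over WT lie above 0 for 8 of 9 genes. Of the genes with a mean of at least 50 CPM, *Alox5* and *Ptgs1* lie past a 2-fold difference for LApcL over LApc. *Il25*, below that mean, lies past it for LApcL over LApc and for LApc over WT.

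Comparing *LApc* with WT asks how the members differ with *Apc* deletion. Point estimates were higher in *LApc* for 8 of 9 genes, the exception being *Dclk1* with a log2 ratio of -0.03 (-0.21 to 0.15). The largest of those with at least 50 CPM on average over both libraries were *Ptgs1* at 0.89 (0.63 to 1.14) and *Alox5ap* at 0.82 (0.71 to 0.94). *Il17rb* stood at 0.73 (0.15 to 1.28), *Trpm5* at 0.66 (0.46 to 0.85), *Alox5* at 0.50 (0.18 to 0.81), *Hpgds* at 0.48 (0.16 to 0.79) and *Ltc4s* at 0.46 (0.31 to 0.60). A level of 50 CPM was reached by 8 of the 9 genes, and 0 of these 8 were past 2-fold in either direction, where 5.17% of 2783 genes were 2-fold or more higher and 3.05% lower. *Il25*, with a mean of 49.5 CPM, missed that level and had a log2 ratio of 1.01 (0.28 to 1.69). The median over the 8 genes was 0.58, beside 0.02 over all genes tested. The 12 tuft markers, which exclude the members, also summed to more in *LApc* (13488 CPM) than in WT (8936 CPM). A higher level in *LApc* was thus not particular to the members.

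Markers of other cell types also differed between the tuft-like cells of the libraries. The summed level of 9 enterocyte markers there was 15406 CPM, against 5314 in WT and 4159 in *LApcL*, and in all other cells of the libraries it was 17803, 7661 and 3479 CPM. All 9 were detected in each library. The summed level of 7 goblet markers was 8458 CPM in WT, 4330 in *LApc* and 3781 in *LApcL* tuft-like cells, and that of 7 Paneth markers 5175, 2268 and 2275 CPM, so both were highest in WT. Markers of T cells gave 87 UMIs in *LApc*, all from 1 cell that held no UMI of the 9 genes, and 5 UMIs in WT and 1 in *LApcL*. The 7 myeloid markers gave 14 UMIs in WT, 0 in *LApc* and 6 in *LApcL*, and the 3 eosinophil markers gave 0 UMIs in each library. Of the 7 mast cell markers, *Kit* made up nearly all of the sum, which ran from 57.3 to 75.2 CPM. B cell markers were at 6.95 to 13.8 CPM and stromal and endothelial markers at 0 to 1.16 CPM. The part of these transcripts in the levels of the members was not tested.

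Comparing *LApcL* with *LApc* asks how the members differ when *Lef1* is deleted along with *Apc*. In the tuft-like cells themselves *Lef1* gave 3 UMIs in *LApc* and 12 in *LApcL*, or 8.27 CPM (1.71 to 24.2) and 6.95 CPM (3.59 to 12.1), so its loss was not shown in the cells compared. *Ptgs1* was 2.57-fold lower in *LApcL* (log2 ratio -1.36, -1.63 to -1.08) and *Alox5* 2.03-fold lower (-1.02, -1.36 to -0.68), a difference that fell short of 2-fold at a mitochondrial limit of 10% (-0.94) and without ribosomal protein and mitochondrial genes in the totals (-0.94). These were the 2 of 8 genes at 50 CPM or more that were past 2-fold lower, where 4.02% of 2837 genes were, and 0 of 8 were past 2-fold higher, where 1.62% of genes were. *Il25*, below the CPM minimum, had a ratio of -1.44 (-2.20 to -0.66). *Il17rb* followed at -0.75 (-1.32 to -0.15) and *Trpm5* at -0.62 (-0.82 to -0.41). *Hpgds* at 0.19 (-0.12 to 0.50) and *Dclk1* at 0.02 (-0.16 to 0.21) had intervals that held 0. The median was -0.49, beside 0.04 over all genes tested. The 12 tuft markers also summed to less in *LApcL* (9273 CPM) than in *LApc* (13488 CPM), so a lower level was not particular to the members. The *LApc* library enters both comparisons, so a high level in it gives opposite signs in them.

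*LApcL* and WT, both taken on day 21, differed less. Relative to WT, *Hpgds* was 1.58-fold higher in *LApcL* (log2 ratio 0.66, 0.48 to 0.84) and *Alox5ap* 1.38-fold higher (0.47, 0.39 to 0.54). *Alox5* was lower (-0.52, -0.75 to -0.29), and so was *Ptgs1* (-0.47, -0.67 to -0.27). The other 5 genes had intervals that held 0. Past 2-fold were 0 of 8 genes, where 1.57% of 2809 genes were higher and 1.71% lower. *Alox5* and *Ptgs1*, whose enzymes act on arachidonate itself, were lower in *LApcL* than in WT when all tuft-like cells were summed, and *Alox5ap* and *Hpgds* were higher. These values moved with the choice of cells. Among cells with no UMI of 6 genes of *Apc*-deficient adenoma cells, *Alox5* was higher in *LApcL* (0.44, 0.14 to 0.74) and *Ptgs1* was at -0.00 (-0.29 to 0.28). Calling cells tuft-like by at least 3 markers gave -0.88 for *Alox5*, -0.82 for *Ptgs1*, 0.07 for *Alox5ap* and 0.26 for *Hpgds*, and keeping doublets gave -0.82, -0.89, 0.12 and 0.34. *Dclk1*, *Trpm5* and *Ltc4s*, all near 0 above, were then at -0.39, -0.32 and -0.29 by markers and at -0.43, -0.30 and -0.19 with doublets kept.

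**Figure D3:**
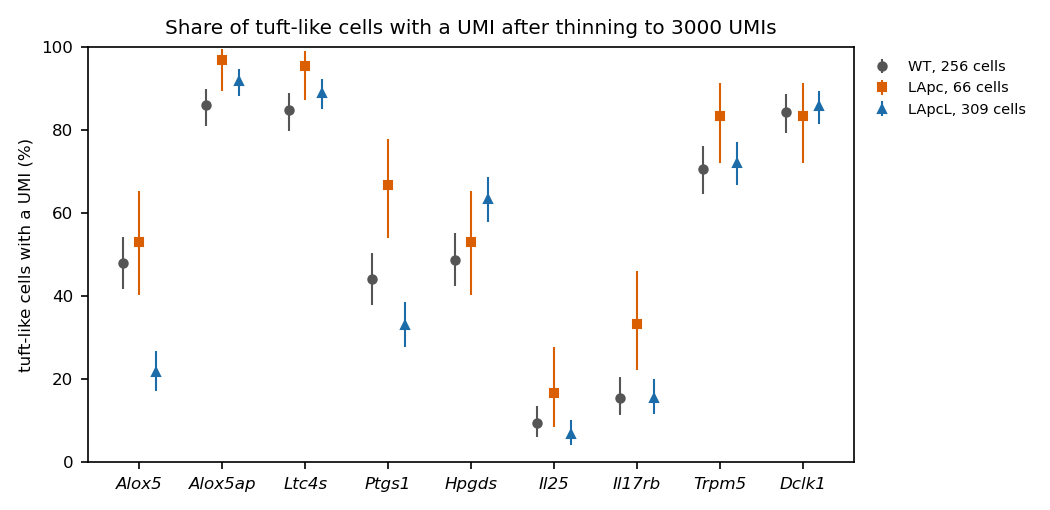
Share of tuft-like cells with at least 1 UMI of each gene after every cell was thinned to 3000 UMIs (percent, exact 95% intervals; 256 WT, 66 LApc and 309 LApcL cells). *Alox5* was found in 48.0% of WT and 21.7% of LApcL cells, whereas *Dclk1* was found in 83.3% to 85.8% in all 3 libraries.

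The same order appeared in the share of cells with a transcript once all cells were thinned to 3000 UMIs, which left out 6 *LApc* and 3 *LApcL* cells. *Alox5* was found in 48.0% (41.8 to 54.4) of WT tuft-like cells, 53.0% (40.3 to 65.4) in *LApc* and 21.7% (17.2 to 26.7) in *LApcL*. *Ptgs1* was found in 44.1% (38.0 to 50.5), 66.7% (54.0 to 77.8) and 33.0% (27.8 to 38.6). *Hpgds* was found in 48.8% (42.6 to 55.1), 53.0% (40.3 to 65.4) and 63.4% (57.8 to 68.8). Without thinning, *Alox5* was in 72.7%, 69.4% and 34.0% of the cells, *Ptgs1* in 76.2%, 72.2% and 45.8%, and *Hpgds* in 81.2%, 61.1% and 80.4%. For *Alox5* and *Ptgs1*, *LApcL* was the lowest library with and without thinning.

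*Alox5ap* and *Ltc4s* were found in 84.8% to 97.0% of thinned tuft-like cells of the 3 libraries, *Dclk1* in 83.3% to 85.8% and *Trpm5* in 70.7% to 83.3%. *Il17rb* was found in 15.6%, 33.3% and 15.5% of WT, *LApc* and *LApcL* cells, and *Il25* in 9.38% (6.10 to 13.6), 16.7% (8.62 to 27.9) and 6.80% (4.26 to 10.2). In all other cells any of the 9 was found in 4.66%, 4.46% and 4.23%, *Ltc4s* in 2.38%, 2.95% and 1.43%, and *Il25* in 0.01% to 0.04%. A thinned tuft-like cell held a median of 5 of the 9 genes in WT, 6 in *LApc* and 5 in *LApcL*, and 65.6%, 84.8% and 58.6% of cells held at least 5.

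Within a library, most pairs of members were found in the same thinned cells about as often as their separate shares would give. This ratio cannot rise far above 1 where either gene is found in most cells, so it does not show independence there. In *LApc* all 11 cells with *Il25* held *Alox5ap*, a ratio of 1.03. *Alox5* and *Ptgs1* were found together in 45 of 309 *LApcL* cells, 2.03 times the number that independence would give, against 1.16 times in WT (63 of 256) and 1.11 times in *LApc* (26 of 66). The larger share of the pair was 33.0% in *LApcL*, 48.0% in WT and 66.7% in *LApc*, so the ratio had most room to rise in *LApcL*. *Ptgs1* and *Il17rb* were found together 1.42, 1.23 and 1.45 times as often as independence would give. *Hpgds* and *Il25* gave 0.77, 0.86 and 0.98.

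**Figure D4:**
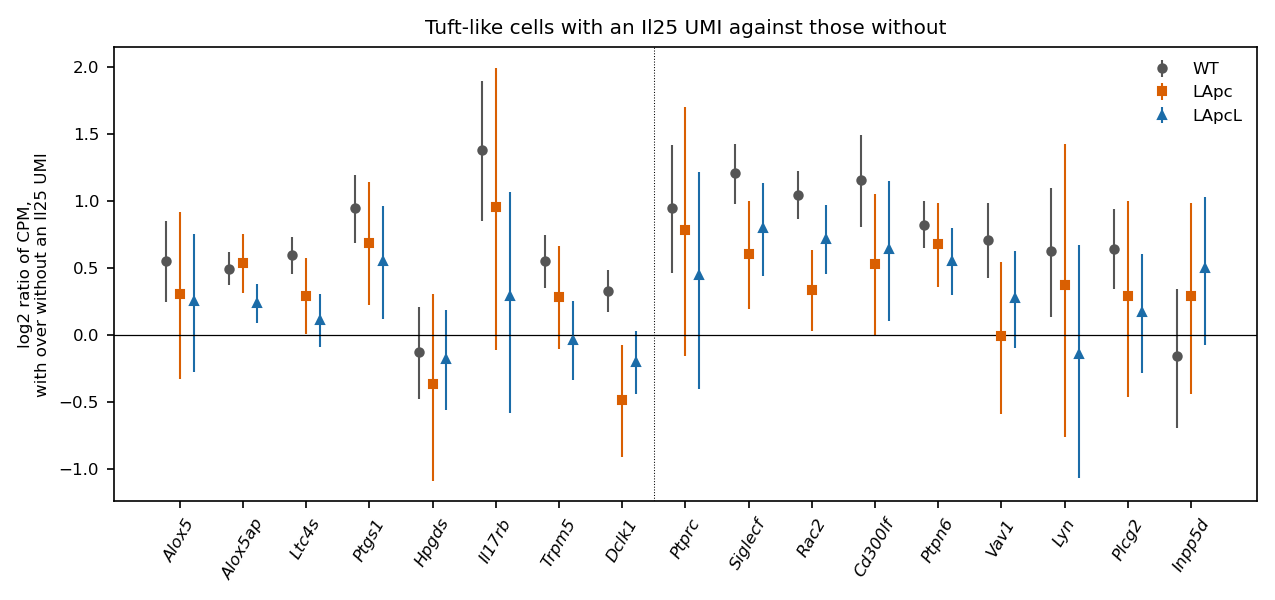
Log2 ratio of CPM in tuft-like cells with an *Il25* UMI over those without, for the other members and the haematopoietic signalling genes, by library, with exact 95% intervals. *Ptgs1* lies above 0 in all 3 libraries and the interval of *Hpgds* holds 0 in each.

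Cells in which *Il25* was seen were compared with the rest of their own library as a description of how the members vary among tuft-like cells. There were 56 such cells in WT, 19 in *LApc* and 36 in *LApcL*, with median depths of 7527.5, 5072 and 6236 UMIs against 7533.5, 4802 and 5045 in the cells without. *Ptgs1* was at 416 CPM with *Il25* and 216 without in WT, 653 and 405 in *LApc*, and 255 and 174 in *LApcL*. *Alox5ap* was at 1525 and 1080, 2672 and 1841, and 1861 and 1577 CPM. Both were higher with *Il25* in each library with intervals above 0. Tuft genes in general were higher in these cells. Of the 12 tuft markers, 10 in WT, 6 in *LApc* and 3 in *LApcL* had intervals above 0 and none below, with medians of 0.66, 0.33 and 0.08.

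*Il17rb* was at 114 CPM with *Il25* and 43.9 without in WT, a log2 ratio of 1.38 (0.85 to 1.90), and its intervals held 0 in the other 2 libraries. *Hpgds* was at 192 and 210 CPM in WT, 238 and 306 in *LApc*, and 293 and 331 in *LApcL*, with all 3 intervals holding 0. *Siglecf*, a sialic acid-binding receptor, was at 566 and 245, 831 and 546, and 382 and 220 CPM, and *Rac2*, a small GTPase of blood cells, at 838 and 405, 1346 and 1066, and 667 and 405 CPM. Past 2-fold higher were *Il17rb* among the members in WT, beside 1.69% of 2714 genes, and none in *LApc* and *LApcL*, beside 5.07% and 0.842%, *Il25* itself left out. *Dclk1* was lower with *Il25* in *LApc* (-0.48, -0.91 to -0.07). None was past 2-fold lower, beside 1.44%, 5.21% and 1.47% of genes. *Fabp1*, an enterocyte gene, moved along with these cells, at 7654 and 2881 CPM in WT, 14498 and 11589 in *LApc* and 6619 and 2256 in *LApcL*. Its part was not tested.

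Tuft-like cells of *LApcL* could also be divided by transcripts of 6 genes of *Apc*-deficient adenoma cells (*Sox17*, *Msx1*, *Notum*, *Nkd1*, *Wif1*, *Dkk2*). None of the 6 was seen in 90 cells, 1 in 133 and 2 or more in 89, with median depths of 5234.5, 5034 and 5191 UMIs. *Alox5* was at 276, 131 and 40.4 CPM in these cells. *Ptgs1* was at 276, 177 and 114, *Il17rb* at 81.5, 58.2 and 34.9, and *Trpm5* at 576, 510 and 347 CPM. *Dclk1* was at 911, 819 and 723 and *Alox5ap* at 1786, 1731 and 1318 CPM. Each of the 9 genes was lowest by point estimate where 2 or more of the adenoma genes were seen. Against cells with none, 8 of the 9 had intervals below 0 and 1 had an interval that held 0.

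Between 2 or more and none, the log2 ratio was -2.77 (-3.49 to -2.11) for *Alox5*, -1.28 (-1.74 to -0.83) for *Ptgs1*, -1.22 (-2.10 to -0.40) for *Il17rb* and -0.73 (-1.01 to -0.46) for *Trpm5*. For *Dclk1* it was -0.33 (-0.53 to -0.13). *Alox5*, *Ptgs1* and *Il17rb* were past 2-fold lower, beside 3.21% of 2863 genes, and no member was past 2-fold higher, beside 2.27%. Other tuft genes were lower there too. Of the 12 tuft markers, 10 had intervals below 0 and 1 above, with a median of -0.60, and 6 of the 9 haematopoietic signalling genes of tuft cells were below 0, with a median of -0.94, beside -0.47 for the members. The marker above 0 was the tuft cell factor *Pou2f3*, at 187 against 123 CPM. *Fabp1* was lower, at 1355 against 5587 CPM. When cells were divided by at least 1 adenoma gene other than *Nkd1*, the ratio of *Alox5* was -0.81 (-1.22 to -0.40) and that of *Ptgs1* -0.21 (-0.55 to 0.12). *Il25* was then at 27.3 CPM (16.7 to 42.1) against 22.1 (13.9 to 33.5). *Nkd1* was also seen in 23.4% of WT tuft-like cells and gave 86 of the 88 UMIs of the 6 genes there. For 1 adenoma gene over none, 3 members had intervals below 0 and none above in both WT and *LApcL*. In *LApc*, 2 members were above 0 and none below. Of the haematopoietic genes, 5 in WT, 5 in *LApcL* and 4 in *LApc* were below 0 and none above.

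**Figure D5:**
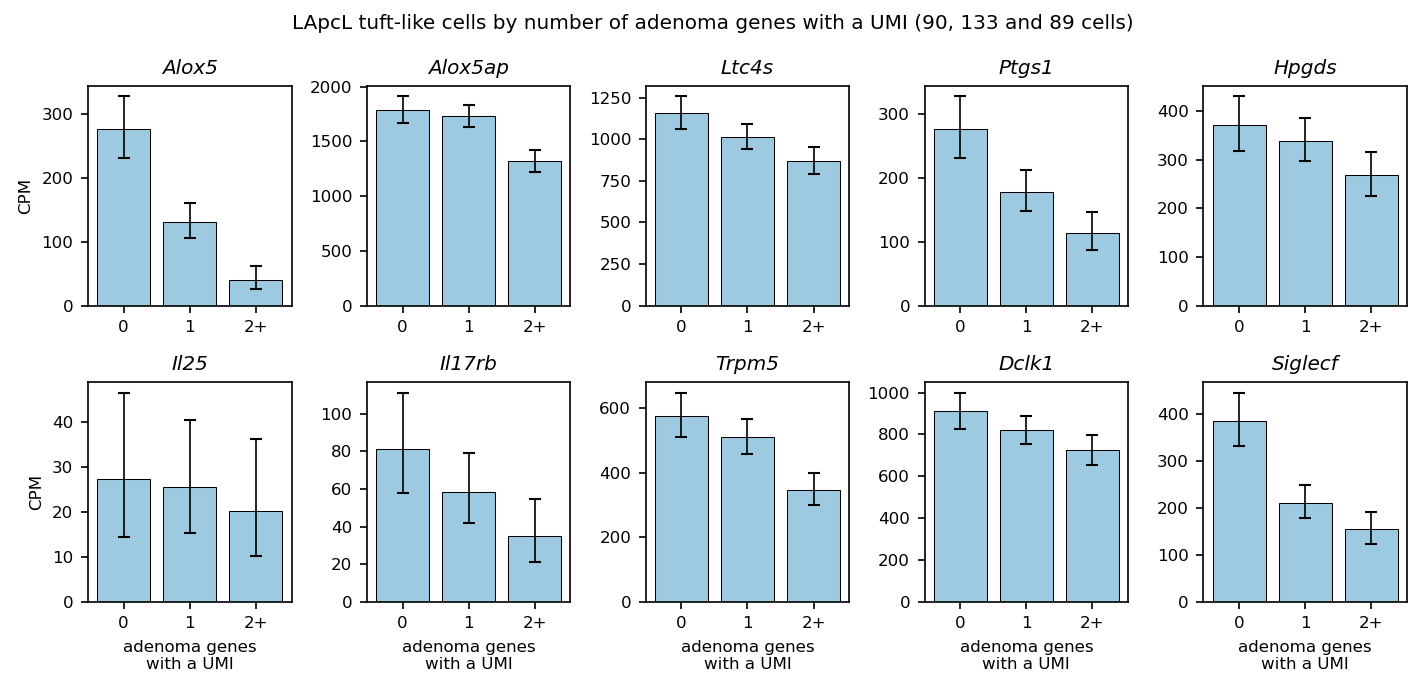
CPM of each gene, and of *Siglecf*, in LApcL tuft-like cells with UMIs of 0, 1 and 2 or more of 6 adenoma genes (90, 133 and 89 cells, exact 95% Poisson intervals, linear axes). *Alox5* steps from 276 to 131 to 40.4 CPM, and *Dclk1* from 911 to 819 to 723 CPM.

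The adenoma genes were also found in other classes of that library. After thinning to 3000 UMIs, at least 2 of them were seen in 17.5% (13.4 to 22.2) of *LApcL* tuft-like cells, 54.7% of adenoma-enriched cells, 23.5% of enteroendocrine-like cells, 8.59% of goblet-like cells and 4.21% of enterocyte-like cells. In *LApc* they were seen in 6.06% of tuft-like cells and in WT in 0 of 256, for which the exact interval reaches up to 1.43% of cells. The part of free RNA in these shares was not tested. Among tuft-like cells with no UMI of the 6 genes, *Alox5* was no longer lower in *LApcL* than in WT. There the *LApcL* over *LApc* ratio was -0.24 (-0.66 to 0.18) for *Alox5*, -0.95 (-1.32 to -0.59) for *Ptgs1* and 0.73 (0.28 to 1.20) for *Hpgds*. These sets held 90 *LApcL*, 47 *LApc* and 195 WT cells. In WT, 61 cells were left out, of which 60 held *Nkd1*.

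Outside the tuft-like class, 3 members had levels with a pattern of their own. *Ltc4s* was at 23.4 CPM (505 UMIs) in WT enterocyte-like cells, 23.8 (413 UMIs) in *LApc* and 12.9 (162 UMIs) in *LApcL*. Within that class it was highest in the cluster led by the apolipoprotein gene *Apoa4*, at 41.7, 40.8 and 18.7 CPM. Per UMI of *Alox5ap* there were 7.65 UMIs of *Ltc4s* in WT enterocyte-like cells, 17.2 in *LApc* and 4.26 in *LApcL*, against 0.81, 0.63 and 0.62 in tuft-like cells. In goblet-like cells the ratio was 1.83, 3.29 and 1.75.

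*Ptgs1* was at 3.43 CPM in the adenoma-enriched cells of *LApc* (34 UMIs) and at 0.36 CPM in those of *LApcL* (38 UMIs), from 1257 and 8645 cells. This was 9.51-fold lower in *LApcL* (log2 ratio -3.25, -3.96 to -2.54), and -3.28 without the 4 and 49 cells that held UMIs of 3 or more tuft markers. The other Wnt/TA-like cells had 0.13 CPM in *LApc*, 0.49 in *LApcL* and 0.45 in WT. *Ptgs1* was thus highest among Wnt/TA-like cells in the adenoma-enriched cells of *LApc*, where 34 UMIs were spread over 29 cells.

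*Hpgds* was at 2.92 CPM (29 UMIs) in the adenoma-enriched cells of *LApc* and at 3.80 CPM (401 UMIs) in those of *LApcL*, and at 0.90 CPM in WT Wnt/TA-like cells. The log2 ratio of *LApcL* adenoma-enriched to WT Wnt/TA-like cells was 2.07 (1.54 to 2.66). The other Wnt/TA-like cells of *LApcL* had 2.97 CPM. Enteroendocrine-like cells had more *Hpgds* than these, at 6.25, 5.84 and 13.6 CPM in WT, *LApc* and *LApcL*. Per UMI of *Alox5ap* there were 1.92 UMIs of *Hpgds* in *LApcL* adenoma-enriched cells and 0.20 in tuft-like cells. High ratios were not limited to adenoma-enriched cells, with 1.20 in the other Wnt/TA-like cells of *LApcL* and 2.75 in the enteroendocrine-like cells of *LApc*. No member reached 50 CPM in the adenoma-enriched cells, so none could be counted as past 2-fold there, where 0.693% of 2742 genes were higher and 4.49% lower in *LApcL* than in *LApc*.

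Enteroendocrine-like cells of *LApcL* had higher levels of several members than those of the other libraries. Among them were *Alox5ap* at 29.1 CPM, *Ltc4s* at 25.3, *Dclk1* at 16.4, *Trpm5* at 14.1 and *Hpgds* at 13.6. In WT the same genes were at 7.39, 9.95, 8.81, 6.54 and 6.25 CPM and in *LApc* at 2.12, 4.25, 0, 1.59 and 5.84 CPM. Few cells carried these values. The 62 *Alox5ap* UMIs of *LApcL* came from 18 of 361 cells, with up to 14 in 1 cell, the 54 of *Ltc4s* from 20 cells and the 30 of *Trpm5* from 12 cells. Per UMI of *Alox5ap*, *Ltc4s* stood at 0.87 (0.59 to 1.28) and *Dclk1* at 0.56 (0.36 to 0.87) in *LApcL* enteroendocrine-like cells, against 0.62 and 0.50 in tuft-like cells. *Ptgs1* stood at 0.113 (0.044 to 0.247) against 0.114. *Hpgds* stood at 0.468 (0.290 to 0.738) against 0.202 (0.184 to 0.221), and these intervals did not overlap. *Trpm5* stood at 0.484 (0.302 to 0.760) against 0.295 (0.273 to 0.319), and these intervals overlapped.

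Summed over all kept cells, 8 of the 9 genes were highest in WT, as was the share of tuft-like cells, and *Hpgds* was highest in *LApcL*. *Dclk1* was at 17.5 CPM in WT, 5.40 in *LApc* and 10.6 in *LApcL*, although its tuft-like levels were close. *Alox5ap* was at 24.3, 13.6 and 20.5 CPM, whereas *Ptgs1* was lowest in *LApcL*, at 5.55, 3.77 and 2.67 CPM. *Hpgds* was at 4.63, 2.94 and 7.01 CPM. The log2 ratio of the tuft-like share of cells was -1.75 for *LApc* over WT, 1.52 for *LApcL* over *LApc* and -0.22 for *LApcL* over WT. For the tuft-like share of UMIs, the share that bears on a summed CPM, it was -1.70, 0.93 and -0.76. The sum alone does not separate fewer tuft-like cells from less RNA of these genes per cell, and the levels within tuft-like cells are given above. No member reached 50 CPM there, so none was counted as past 2-fold, beside 2.58% of genes higher and 1.64% lower for *LApc* over WT, 3.01% and 7.48% for *LApcL* over *LApc*, and 7.04% and 7.25% for *LApcL* over WT.

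The other genes of the arachidonate and leukotriene pathway were mostly low in tuft-like cells. Of 16 genes in the files, 3 reached 50 CPM. The cytosolic phospholipase gene *Pla2g4a*, whose product frees arachidonate, was at 154, 245 and 188 CPM in WT, *LApc* and *LApcL*. *Mgst2*, which can also make leukotriene C4, was at 171, 179 and 133 CPM, and *Mgst3* at 3375, 3825 and 2863 CPM. None of the 3 was past 2-fold in a comparison.

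Of 13 further prostaglandin genes, 5 reached 50 CPM. The prostaglandin-degrading enzyme gene *Hpgd* was at 60.3, 93.7 and 49.8 CPM, *Ptges3* at 131, 105 and 124 CPM, and *Cbr1*, encoding a carbonyl reductase, at 170, 196 and 194 CPM. *Ptgr2* was at 57.9 to 66.0 CPM. *Ptgr1* was at 30.6 CPM in WT, 24.8 in *LApc* (9 UMIs) and 52.7 in *LApcL*, more than 2-fold higher in *LApcL* than in *LApc*. Its mean was below 50 CPM in each comparison, so it was not counted. None of the others was past 2-fold. Of 14 eicosanoid receptor genes, 0 reached 50 CPM and 10 had no UMI in tuft-like cells of any library.

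Of 14 type 2 cytokine and receptor genes, 2 reached 50 CPM and 7 had no UMI. *Il13ra1*, a receptor subunit for IL-13, was at 271, 234 and 270 CPM in WT, *LApc* and *LApcL*. *Stat6*, which acts downstream of it, was at 42.0, 79.9 and 56.7 CPM. Neither was past 2-fold.

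Of 15 taste transduction and channel genes, 6 reached 50 CPM. *Gng13*, a G protein subunit gene, was at 476, 469 and 650 CPM, and *Plcb2*, the phospholipase of the taste cascade, at 90.1, 96.5 and 71.8 CPM. *Gnb3* was at 2.62, 24.8 and 67.1 CPM. *Ffar3*, a short-chain fatty acid receptor gene, was at 143, 154 and 115 CPM, and *Sucnr1*, the succinate receptor gene, at 65.6, 44.1 and 53.3 CPM. *Chat*, which makes acetylcholine, was at 35.0, 71.7 and 30.1 CPM. *Chat* was the 1 of 5 genes tested that was past 2-fold higher for *LApc* over WT, beside 5.17% of all genes, and the 1 of 4 past 2-fold lower for *LApcL* over *LApc*, beside 4.02%. It reached the mean of 50 CPM in both comparisons only through its *LApc* level, which rests on 26 UMIs. The calls are therefore not separate results and are no support for a difference.

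The 9 haematopoietic signalling genes of tuft cells all reached 50 CPM, and 8 were over 10 times higher in tuft-like than in other cells of each library. *Rac2* was at 493, 1144 and 441 CPM, *Siglecf* at 310, 626 and 242 CPM, *Cd300lf*, an inhibitory receptor gene, at 136, 369 and 117 CPM and *Inpp5d*, a lipid phosphatase gene, at 94.0, 223 and 111 CPM. These 4 of 9 were past 2-fold higher for *LApc* over WT, beside 5.17% of all genes tested. The same 4 with *Ptprc* (75.6, 124 and 55.6 CPM), the CD45 phosphatase gene, were past 2-fold lower for *LApcL* over *LApc*, beside 4.02%, and 0 of 9 were past 2-fold for *LApcL* over WT. The list medians were 0.85, -1.01 and -0.16, beside 0.02, 0.04 and 0.04 over all genes tested.

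The genes most like each member were ranked by Pearson's r of log2(CPM + 10) over 20 units, each a class of 1 library with at least 20 cells, among 4695 genes. *Siglecf* was among the 3 closest to *Alox5*, *Ptgs1* and *Il17rb* (r = 0.999, 0.998 and 0.999). *Alox5ap* and *Trpm5* had *Bmx*, a tyrosine kinase gene, first (0.998 and 0.999), and *Dclk1* had *Rgs13* (0.999). *Il25* had *Chat* first (0.999), *Hpgds* had *Pygl* (0.995), the gene of a glycogen phosphorylase, and *Ltc4s* had *1810046K07Rik* (0.994). The 36 pairs of members gave r from 0.957 to 0.998. The units share libraries and depths, and the 3 tuft-like units stand far from the others, so such values are near 1 for any gene raised in that class.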

How the data were processed

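The authors counted UMIs per gene and cell with Cell Ranger 2.1.1 against mm10 (GRCm38), per the labels and methods, and deposited raw UMI counts as filtered 10x matrices. Which reagent version each library used is not given in the sources used here. Barcodes in the outer 1% by genes detected at either end and those with over 20% mitochondrial UMIs were dropped, and the expected share of doublets was removed by Scrublet score (scanpy 1.11.5; 961, 1117 and 2235 cells). The libraries were integrated with Seurat 5.3.0 (CCA, 20 components, Louvain resolution 0.2) on 946 features without the members and pathway lists. Clusters were named by fixed markers. Adenoma-enriched cells are Wnt/TA-like subclusters of which WT gave under 10% at equal cell numbers.

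Counts were summed per class and library. Ratios carry exact conditional binomial intervals, levels exact Poisson and shares Clopper-Pearson intervals, at 95%. With 1 library per genotype no test was made: past 2-fold, at a mean of 50 CPM, is a description. The intervals and the 2-fold call were tested on counts drawn from the summed WT and *LApc* tuft-like profiles, with known folds and no variation between cells or mice. Filtering, doublet removal, clustering, cell naming, thinning and the splits were not tested in this way. Named genes are the 9 members, the 3 most correlated with each, and list genes at 50 CPM in tuft-like cells. *Il25* splits and adenoma gene splits were added after the values were seen. The members and lists were chosen with earlier results of these data known.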

Additional observations from a re-analysis of the deposited data

How the results depend on the processing

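Ratios were most sensitive to which cells were taken as tuft-like. Keeping doublets raised the tuft-like share to 3.21% in WT, 1.04% in *LApc* and 2.81% in *LApcL*, and calling cells by at least 3 markers gave 3.00% in WT and 2.87% in *LApcL*. *Il25* made 1 member past 2-fold higher for *LApc* over WT when each library was clustered on its own or when low values were kept. For *LApcL* over *LApc* the count of 2 lower became 1 at a mitochondrial limit of 10% and 0 in tuft-like cells with no adenoma gene UMI, a set chosen after seeing the data; it was 2 or 3 under the other alternatives, with *Il17rb* (-1.02) the third when doublets were kept and *Il25* in place of *Alox5* when ribosomal protein and mitochondrial genes were left out of the totals. Over all kept cells, keeping low values gave 3 lower for *LApc* over WT (*Alox5*, *Trpm5*, *Dclk1*), 1 higher for *LApcL* over *LApc* (*Hpgds*) and 3 lower for *LApcL* over WT (*Alox5*, *Ptgs1*, *Il25*).

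The summed level of the 9 genes in adenoma-enriched cells was 12.9 CPM for *LApc* and 12.0 for *LApcL*. For *LApc* it became 15.6 CPM with each library clustered on its own. Without ribosomal protein and mitochondrial genes in the totals it was 18.3 CPM in both. In *LApcL* it was 14.5 CPM with doublets kept, 13.0 CPM with TMM or DESeq2 size factors, and 11.3 CPM without cells holding 3 tuft markers, a set also chosen after seeing the data. With all UMIs in place of 3000 per cell, WT tuft-like cells held 6.68 of the 9 genes on average, and 13.9%, 8.43% and 12.1% of other cells in WT, *LApc* and *LApcL* held any. TMM took *Dclk1* from -0.00 to -0.12 for *LApcL* over WT in tuft-like cells, and DESeq2 size factors took it from -1.69 to -2.06 for *LApc* over WT in all cells. No ratio past 2-fold changed sign, but *Alox5* for *LApcL* over WT went from -0.52 to 0.44 in tuft-like cells with no adenoma gene UMI. The causes were not tested.

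No paired analysis was possible because each genotype had 1 library. The *LApc* tuft-like class, with 72 cells and 24 *Il25* UMIs, limits the precision of every ratio it enters.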
